A study of Mus musculus with 931 samples.

Results

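The data described here are 8 bulk RNA libraries of mouse pancreatic β cells, the islet cells that make insulin. Their members were chosen by stage: 4 libraries from near weaning (P15 and P18, postnatal days 15 and 18, 2 each) were set against 4 neonatal libraries (P3 and P9, 2 each). They belong to 14 bulk libraries that run from E17.5 through P0 to P60, in a series of 931 samples that otherwise holds single cells. All 8 libraries came from pancreas of mice labelled Ins1-RFP+, in which a red fluorescent reporter follows the Ins1 insulin gene, and were sorted on that fluorescence. The mice were of a mixed C57BL/6 and C3H background, no treatment is labelled, and the labels set the groups apart by age alone. The labels name neither the animals nor any pooling, so the p-values measure the spread between libraries, which may be technical. Poly(A) RNA was sequenced with a kit that keeps the strand, and the 8 libraries held between 10834666 and 21440593 gene reads.

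β cells of newborn rodents hold insulin but secrete it poorly in response to glucose. During the suckling period and at weaning, when milk gives way to a diet rich in carbohydrate, they acquire the glucose threshold and calcium sensing of the adult cell. Genes that are high in many other tissues but low in mature islets, often called disallowed genes, are switched off over the same period. These libraries span that interval.

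The near-weaning libraries held more mRNA for Syt4, a synaptotagmin that limits exocytosis at low glucose, and for Ucn3, a peptide of mature β cells. Rgs2, a brake on G protein signalling, was higher as well. These libraries held less mRNA for Igf2bp3 and Dlk1, genes of fetal and immature cells, and for the basement membrane genes Lamb1, Lama5 and Col18a1. In single β cells, described below, Lama5 and Col18a1 were not called. In edgeR's quasi-likelihood test over all 14 libraries, 469 of 16086 genes were called higher near weaning (2.92%) and 608 were called lower (3.78%) at a Benjamini-Hochberg adjusted p under 0.05. Of these, 155 rose and 394 fell more than 2-fold. All 4 near-weaning libraries lay above all 4 neonatal ones for 1097 genes (6.82%) and below them for 1055 genes (6.56%), and 380 of the called rises and 475 of the called falls had no overlap between libraries. The median log2 change of all genes tested was -0.01. Below, levels are CPM, read counts scaled to a common library size with TMM factors, in the order of the labelled replicates, and a ± after a log2 change is its standard error.

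The counts of called genes rest on single libraries. Leaving out any 1 of the 8 gave 139 to 528 rises and 220 to 778 falls, with the lowest counts without P3 replicate 1 (139 and 233) and P9 replicate 1 (157 and 220). The rises were also more than 1.5 times fewer without P9 replicate 2 (276), and both counts were so without P15 replicate 2 (187 and 282), P18 replicate 1 (192 and 225) and P18 replicate 2 (219 and 304). P3 replicate 1 and P9 replicate 1 stood apart in Xist, the transcript of the inactive X chromosome of females, with 140 and 449 CPM against 0.467 to 5.59 CPM in the other 6 libraries, while the Y-linked gene Ddx3y was read in all 8 (70.4 to 119 CPM). Without both, 33 rises and 54 falls were called, of which 29 and 54 were among the calls made with all libraries, and no called gene changed sign. Of 56 called genes chosen by the naming rule, 33 were called without each library in turn and 14 under all 18 alternatives, among them Syt4, Rgs2, P2ry1, Sstr3, Dio1, Igf2bp3, Smad3, Lamb1, Lama5 and Col18a1. The setting without both, added after the data were seen, leaves 1 library at P3 and at P9. The plot of calls by setting gives the calls of every fit and the part of them that is shared.

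**Figure D1:**
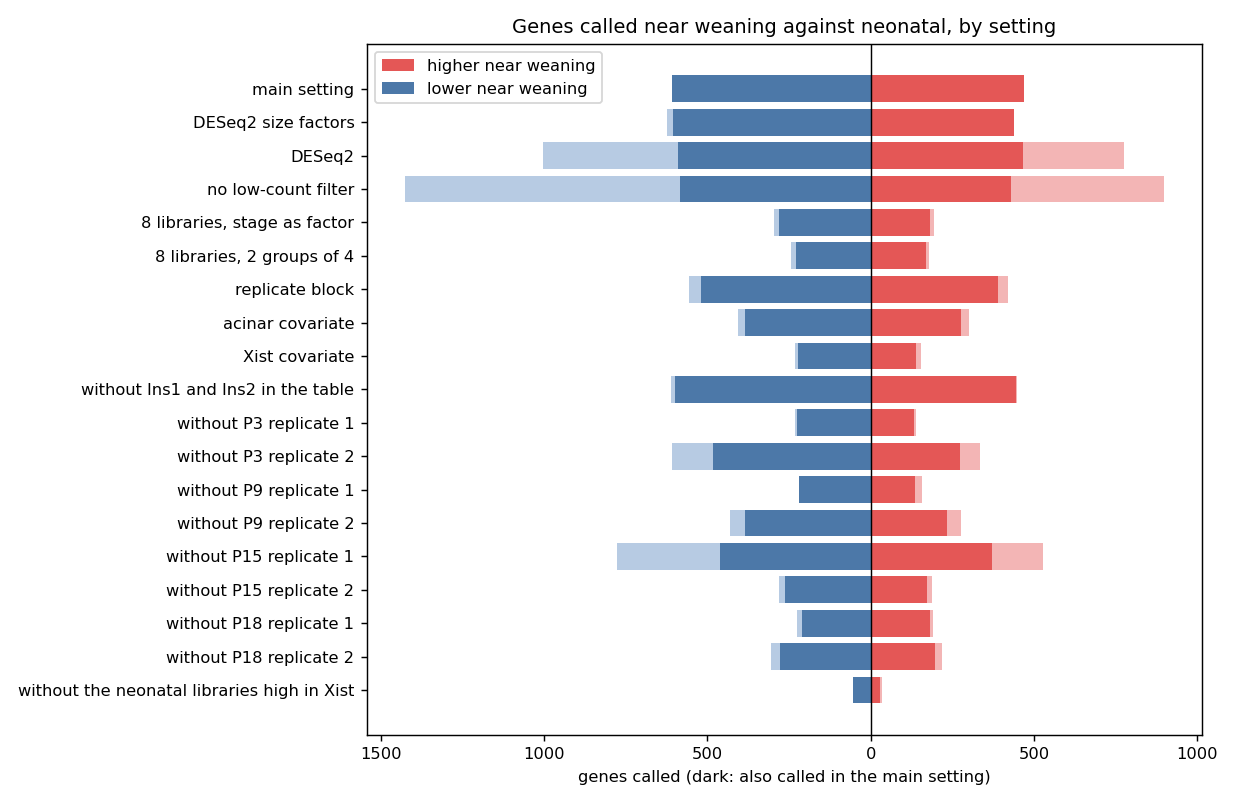
Number of genes called higher (right, red) and lower (left, blue) near weaning against neonatal under each processing setting, with genes also called in the main setting in the dark shade. The main setting has 469 and 608 genes, and the fit without the neonatal libraries high in Xist has 33 and 54.

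The list of mature β cell function had 22 genes, of which 6 rose and 0 fell (median log2 change 0.27), where 2.92% of all genes rose and 3.78% fell. List counts below are to be read against these shares, and a list with 1 called gene of 20 or more lies near them. The count was 4 to 6 with any 1 library left out. Syt4 stood at 18.6 and 20.5 CPM at P3, 47.9 and 37.2 at P9, 80.1 and 79.5 at P15 and 102 and 79.9 at P18. It rose 2.96-fold (log2 change 1.56 ± 0.13, adjusted p = 0.000577), and every near-weaning library lay above every neonatal one. Ucn3, which acts on δ cells within the islet, stood at 105 and 133 CPM at P3, 233 and 267 at P9, 289 and 367 at P15 and 465 and 370.1 at P18. Its rise (log2 change 1.10 ± 0.13, adjusted p = 0.00196) was again without overlap between the groups. Trpm5, a sodium-permeable channel opened by calcium, stood at 41.4 and 75.2 CPM at P3, 95.7 and 121 at P9, 137 and 189.9 at P15 and 230.2 and 175 at P18 (log2 change 1.197 ± 0.19, adjusted p = 0.00541), also without overlap. Ero1lb, which oxidizes proinsulin in the endoplasmic reticulum, stood at 964 and 1402 CPM at P3, 1807 and 1741 at P9, 2021 and 1931 at P15 and 3223 and 2818 at P18 (log2 change 0.75 ± 0.14, adjusted p = 0.01), and all near-weaning libraries were the higher ones.

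The amylin gene Iapp, whose peptide is released together with insulin, stood at 8447 and 8029 CPM at P3, 10581 and 10947 at P9, 14773 and 15973 at P15 and 15615 and 13808 at P18. It rose by a log2 of 0.68 (adjusted p = 0.0169) with no overlap, but the call ended without P3 replicate 1 (0.69), P9 replicate 1 (0.66), P9 replicate 2 (0.70) or P18 replicate 1 (0.62). G6pc2, the islet glucose-6-phosphatase, stood at 1089 and 1457 CPM at P3, 1952 and 1170 at P9, 2040 and 1815 at P15 and 2761 and 2902 at P18, with overlapping groups. Its call (log2 change 0.73, adjusted p = 0.0338) ended without P3 replicate 1 (0.63), P9 replicate 2 (0.58), P15 replicate 1 (0.68), P15 replicate 2 (0.77), P18 replicate 1 (0.74) or P18 replicate 2 (0.71). The insulin genes themselves were not called. Ins1 stood at 45218 and 41884 CPM at P3, 45406 and 39376 at P9, 50237 and 44204 at P15 and 66249 and 41164 at P18 (adjusted p = 0.504). Ins2 had 63541 and 62102 CPM at P3, 95410 and 73592 at P9, 107607 and 102327 at P15 and 141326 and 91030 at P18 (adjusted p = 0.0906), and both overlapped between groups. Mafa, which activates the insulin genes in adult β cells, had 50.7 and 182 CPM at P3, 106 and 218 at P9, 53.8 and 39.5 at P15 and 86.2 and 51.3 at P18. Its highest values were in the second replicates of P3 and P9, and it was not called (log2 change -1.28 ± 0.53, adjusted p = 0.173). The glucose transporter Slc2a2 (adjusted p = 0.143) and the incretin receptor Glp1r (0.746) were not called either.

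**Figure D2:**
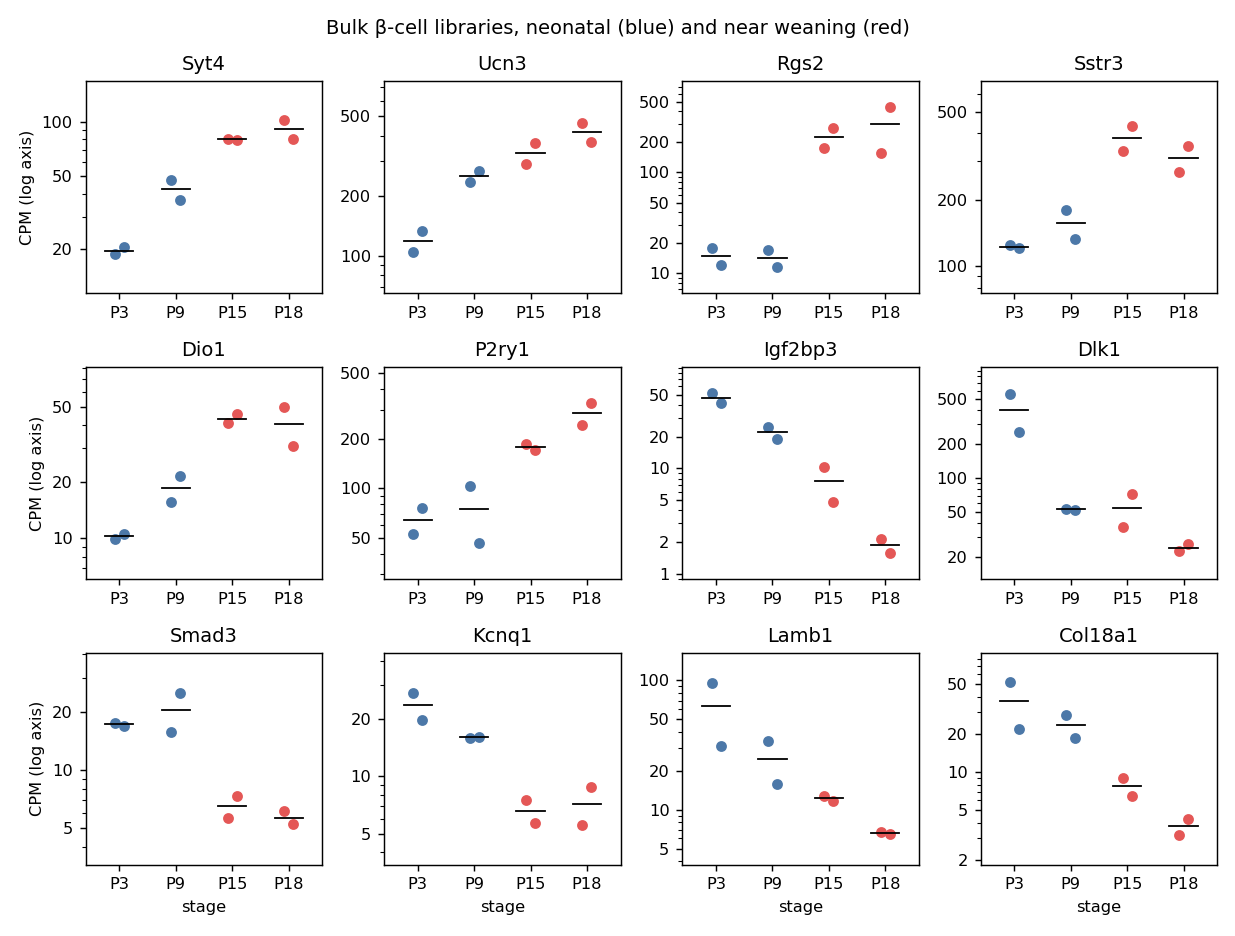
CPM (log axis) of 12 named genes in each bulk library at P3 and P9 (blue) and P15 and P18 (red), with a line at the mean of the 2 libraries of a stage. The first 6 genes rose and the last 6 fell, and Dlk1 overlaps between the groups.

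Rgs2 (ENSMUSG00000026360, chromosome 1, 143999338 to 144004161 on GRCm38), which shortens signalling by G proteins of the Gq class, stood at 17.8 and 12.0 CPM at P3, 16.9 and 11.4 at P9, 173 and 275 at P15 and 153 and 443 at P18. It rose 17.7-fold (log2 change 4.15 ± 0.38, adjusted p = 0.000596) and lay at 17.8 CPM or lower in all neonatal libraries. Sstr3 (ENSMUSG00000044933, chromosome 15, 78537008 to 78544685), a somatostatin receptor, stood at 124 and 120.5 CPM at P3, 180.2 and 133 at P9, 330.5 and 430.3 at P15 and 267 and 348 at P18. All 4 later libraries were higher (log2 change 1.31 ± 0.14, adjusted p = 0.0012). P2ry1 (ENSMUSG00000027765, chromosome 3, 61002795 to 61008982), a receptor for ADP released with insulin, stood at 52.8 and 76.1 CPM at P3, 103 and 46.4 at P9, 187 and 170.2 at P15 and 244 and 332 at P18 (log2 change 1.71 ± 0.22, adjusted p = 0.00275), without overlap. Among 21 hormone and nutrient receptors tested, 3 rose and 1 fell (median log2 change 0.05), and with 1 library left out 2 or 3 rose. The third riser was Oxtr, the oxytocin receptor, at 3.49 and 3.90 CPM at P3, 4.65 and 3.21 at P9, 8.33 and 20.4 at P15 and 15.8 and 5.70 at P18, whose call was lost without 6 of the 8 libraries in turn. The faller was Gprc5b, an orphan receptor, at 25.9 and 17.506 CPM at P3, 8.30 and 5.32 at P9, 8.64 and 10.9 at P15 and 5.20 and 5.89 at P18, with overlapping groups, and this call was lost without P3 replicate 1, P9 replicate 1 or any 1 library of P15 or P18.

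Further large rises were in genes of other functions. Pde5a, a phosphodiesterase that degrades cGMP, stood at 61.0 and 76.9 CPM at P3, 138 and 65.9 at P9, 379 and 248 at P15 and 144 and 374 at P18 (log2 change 1.76 ± 0.33, adjusted p = 0.0115), and its call ended without P3 replicate 1 (1.69). Negr1, a neuronal adhesion protein, stood at 3.66 and 5.00 CPM at P3, 14.6 and 11.9 at P9, 22.1 and 27.3 at P15 and 28.7 and 22.2 at P18 (log2 change 1.73 ± 0.16, adjusted p = 0.000614). In both genes the groups did not overlap. Fer1l6, of the ferlin family of membrane fusion proteins, had a log2 change of 1.85 (adjusted p = 0.00267), Mum1l1 of 1.82 (0.00395) and Mdm1, a protein of microtubules and centrioles, of 1.67 (0.0082). None of the genes of this paragraph was called in single β cells, described below. Their log2 changes there were 0.39 (Mdm1) to 1.11 (Fer1l6), with adjusted p of 0.556 or more in edgeR.

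Of 25 ion channel genes, 1 rose, 3 fell and 21 were not called (median -0.15). The riser was Trpm5. Kcnq1, a voltage-gated potassium channel, stood at 27.4 and 19.7 CPM at P3, 15.9 and 16.0 at P9, 7.50 and 5.70 at P15 and 5.59 and 8.79 at P18 and fell 2.82-fold (log2 change -1.498 ± 0.19, adjusted p = 0.00275), with all near-weaning libraries below all neonatal ones. Its exons overlap those of the antisense RNA Kcnq1ot1, and the strand setting of the counting is not given in the sources used here, so the reads of both cannot be told apart. The same holds for 15 of the 68 genes chosen by the naming rule, among them Syt4, Igf2bp3, P2ry1, Pde5a and Pfkp, whose exons overlap those of another gene. Another faller was Cacna1h, a T-type calcium channel, at 26.0 and 22.4 CPM at P3, 11.8 and 8.78 at P9, 4.32 and 10.1 at P15 and 8.58 and 6.17 at P18. Only 1 faller was left without P3 replicate 1, P9 replicate 1, P18 replicate 1 or P18 replicate 2.

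Of 14 genes of thyroid hormone and glucocorticoid response, 4 rose and 1 fell (median 0.24). Dio1, the deiodinase that activates thyroid hormone, stood at 9.91 and 10.6 CPM at P3, 15.7 and 21.5 at P9, 40.8 and 45.5 at P15 and 49.9 and 30.9 at P18. It rose 3.03-fold (log2 change 1.601 ± 0.17, adjusted p = 0.00103) and the lowest later library exceeded the highest earlier one. Nr3c2, the mineralocorticoid receptor, stood at 3.05 and 2.87 CPM at P3, 6.69 and 5.40 at P9, 6.93 and 13.3 at P15 and 9.16 and 11.0 at P18 (log2 change 1.25 ± 0.23, adjusted p = 0.0109). Fkbp5, a classical glucocorticoid target, stood at 122 and 84.7 CPM at P3, 98.7 and 79.6 at P9, 240.2 and 273 at P15 and 77.7 and 219 at P18. Zbtb16, another such target, had 1.44 and 0.588 CPM at P3, 0.237 and 0.338 at P9, 1.72 and 10.0 at P15 and 0.455 and 4.86 at P18. Both had overlapping groups. P18 replicate 1 was low in both genes, below all neonatal libraries for Fkbp5 and within their range for Zbtb16. The rises numbered 2 without P3 replicate 1, P3 replicate 2, P9 replicate 1, P9 replicate 2, P15 replicate 2 or P18 replicate 2.

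Of 21 genes of neonatal and immature endocrine cells that were tested, 6 fell and 1 rose (median -0.86), and the fall count was 5 to 8 with any 1 library left out. The riser, Sox4, a transcription factor of endocrine progenitors (log2 change 0.97 ± 0.26, adjusted p = 0.0491), lost its call without 6 of the 8 libraries in turn. Igf2bp3 (ENSMUSG00000029814, chromosome 6, 49085223 to 49214957), an RNA-binding protein of fetal tissues and tumours, stood at 51.6 and 41.3 CPM at P3, 24.9 and 18.9 at P9, 10.2 and 4.79 at P15 and 2.14 and 1.59 at P18. It fell in every later library relative to every earlier one and was 8.47-fold lower (log2 change -3.08 ± 0.25, adjusted p = 0.000577). Its relatives were lower as well. Igf2bp1 stood at 17.9 and 19.6 CPM at P3, 8.30 and 4.05 at P9, 5.08 and 1.48 at P15 and 2.34 and 1.68 at P18 (log2 change -2.07 ± 0.33, adjusted p = 0.00625), with P15 replicate 1 above P9 replicate 2. Igf2bp2 stood at 56.4 and 62.4 CPM at P3, 39.9 and 38.5 at P9, 32.0 and 34.6 at P15 and 22.9 and 33.4 at P18 (log2 change -0.66 ± 0.14, adjusted p = 0.0198), a smaller change, whose call ended without P9 replicate 1 (-0.65), P15 replicate 2 (-0.69) or P18 replicate 1 (-0.54). Hmga2, a chromatin protein of growing cells, was low throughout, at 2.38 and 2.80 CPM at P3, 0.854 and 2.20 at P9, 0.445 and 0.342 at P15 and 0.390 and 0.654 at P18 (log2 change -2.11 ± 0.38, adjusted p = 0.01).

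Igf2bp1, Igf2bp2, Igf2bp3 and Hmga2 are textbook targets of the let-7 microRNAs, whose seed pairs with sites in 3' untranslated regions. The mature sequences of the family are shown because all 9 forms looked up in RefSeq (GRCm38.p6) share 1 seed, bases 2 to 8, in capitals. The 3 forms below stand for them.
mmu-let-7a-5p: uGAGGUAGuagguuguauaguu
mmu-let-7d-5p: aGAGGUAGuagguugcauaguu
mmu-let-7i-5p: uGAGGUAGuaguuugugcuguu
The letters that pair with this seed, CTACCTC, were searched on the transcribed strand of the longest annotated 3' region of each gene in GENCODE M21. They occurred 4 times in Igf2bp1, 4 times in Hmga2, and 1 time each in Igf2bp2 and Igf2bp3. One site per gene follows, with the matching letters in capitals.
Igf2bp1: gcagtgctattaaCTACCTCagc
Igf2bp2: acacaaataaaagCTACCTCagg
Igf2bp3: catttttactcaaCTACCTCagg
Hmga2: cgacattcaatttCTACCTCagc
Of 14378 tested genes with such a region, 1500 (10.4%) held at least 1 match and 192 (1.34%) at least 2. The shares with at least 1 match were 9.91% of called rises and 13.1% of called falls, whose regions had a median length of 1645 bases each, against 1153 over all genes. Dlk1, another called faller of the list, held 0 matches. A match is a description of letters, and microRNAs were not measured in these poly(A) libraries. Lin28b, which blocks let-7 processing and itself held 4 matches, was not called. Neither was Hmga1, another member of the list, which held 1 match.

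Dlk1, an imprinted surface protein of immature cells, stood at 554 and 259 CPM at P3, 52.8 and 52.6 at P9, 36.6 and 72.6 at P15 and 22.4 and 25.9 at P18. The group means differed (log2 change -2.01 ± 0.27, adjusted p = 0.00299), but P15 replicate 2 exceeded both P9 libraries. Of 23 islet transcription factors, 3 fell and 1 rose (median -0.20). Meis2, a homeobox factor of pancreas development, stood at 224 and 212 CPM at P3, 169.5 and 158 at P9, 139.8 and 138 at P15 and 137 and 132 at P18 (log2 change -0.47 ± 0.09, adjusted p = 0.0108), a small fall without overlap. In single β cells, described below, Meis2 was not called (log2 change 0.05 ± 0.15, adjusted p = 0.963 in edgeR). Bach2 fell (log2 change -1.26, adjusted p = 0.042), a call that ended without each library other than P9 replicate 2 and P18 replicate 2, and Esrrg, a nuclear receptor of mature β cells, rose (0.75, 0.0351). The falls numbered 1 without P3 replicate 1 or P18 replicate 1, and the rise of Esrrg was lost without P3 replicate 1, P9 replicate 1 or any 1 library of P15 or P18.

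The 10 largest falls with no overlap between the groups included genes of the extracellular matrix. Lamb1 (ENSMUSG00000002900, chromosome 12, 31265234 to 31329644), a laminin β chain, stood at 95.8 and 31.2 CPM at P3, 33.8 and 15.8 at P9, 12.9 and 11.7 at P15 and 6.76 and 6.45 at P18 and was 4.42-fold lower (log2 change -2.14 ± 0.34, adjusted p = 0.00541). Lama5, a laminin α chain, stood at 50.5 and 29.9 CPM at P3, 21.0 and 20.4 at P9, 8.77 and 7.41 at P15 and 4.22 and 6.92 at P18 (log2 change -2.11 ± 0.27, adjusted p = 0.00275). Col18a1, whose cleaved end is endostatin, stood at 51.9 and 22.3 CPM at P3, 28.6 and 18.8 at P9, 9.02 and 6.55 at P15 and 3.18 and 4.30 at P18 (log2 change -2.47 ± 0.29, adjusted p = 0.00196). In these 3 genes all later libraries were below all earlier ones, and the call held without each library. Gpc3, a glypican of the cell surface, stood at 43.6 and 11.9 CPM at P3, 22.7 and 18.5 at P9, 6.55 and 6.55 at P15 and 3.12 and 3.08 at P18 (log2 change -2.41 ± 0.35, adjusted p = 0.00395). Adamts1, a matrix protease, had 41.6 and 19.5 CPM at P3, 33.8 and 34.5 at P9, 10.2 and 6.95 at P15 and 3.18 and 8.60 at P18 (log2 change -2.20 ± 0.34, adjusted p = 0.00541), and neither gene overlapped. Eln, the elastin gene, stood at 60.4 and 37.3 CPM at P3, 55.6 and 26.6 at P9, 5.72 and 14.1 at P15 and 4.09 and 15.0 at P18 (log2 change -2.22 ± 0.52, adjusted p = 0.0283). Its call ended without P3 replicate 1 (-2.02), P9 replicate 1 (-1.90), P15 replicate 1 (-1.97) or P18 replicate 1 (-1.88). Nfib, a transcription factor that also stands on the disallowed list, had a log2 change of -2.24 (adjusted p = 0.00541) and Scara3, a scavenger receptor, of -2.33 (0.00698). In single β cells, described below, Adamts1, Eln and Scara3 lay at 0.168 CPM or lower in every batch of both ages and were not tested.

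Summed markers of mesenchymal and endothelial cells did not separate the groups, though their median members were lower near weaning. The 8 mesenchymal markers had a median log2 change of -1.79, with 6 at an unadjusted p under 0.05 in edgeR. The 8 endothelial markers had a median of -1.02, with 2 at an unadjusted p under 0.05. The sum of 8 mesenchymal markers was 1291 and 145 CPM at P3, 528 and 122 at P9, 149 and 230.5 at P15 and 56.7 and 161 at P18 (exact two-sided permutation test, 4 against 4, exact p = 0.314). The sum of 8 endothelial markers was 65.9 and 19.1 CPM at P3, 63.4 and 22.0 at P9, 22.9 and 15.9 at P15 and 23.4 and 20.7 at P18 (exact p = 0.257 in the exact permutation test). Both sums were highest in P3 replicate 1 and P9 replicate 1, and of the 16 markers 1 was called, Acta2, the smooth muscle actin gene, at 25.2 and 16.0 CPM at P3, 13.1 and 4.39 at P9, 2.03 and 0.342 at P15 and 1.23 and 2.43 at P18. Without these 2 libraries, 1 library is left at P3 and at P9. Lamb1 then had a log2 change of -1.31, Lama5 of -1.90, Col18a1 of -1.94 and Gpc3 of -1.73. Adamts1 had a change of -1.89, Eln of -1.72, Nfib of -1.92 and Scara3 of -1.82, and these last 4 calls were lost. Each of these changes was smaller than with all libraries. In bulk RNA, fewer cells of a type and less RNA per cell cannot be told apart.

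The disallowed list had 24 tested genes, of which 9 fell, 0 rose and 15 were not called (median -1.10, against -0.01 for all genes). Smad3, a signal carrier of TGF-β, stood at 17.502 and 17.0 CPM at P3, 15.7 and 25.1 at P9, 5.66 and 7.35 at P15 and 6.11 and 5.23 at P18. It was 3.08-fold lower, with no overlap (log2 change -1.62 ± 0.25, adjusted p = 0.00541). Oat, a mitochondrial aminotransferase, stood at 83.7 and 68.3 CPM at P3, 53.6 and 49.0 at P9, 37.2 and 18.3 at P15 and 22.8 and 23.6 at P18 (log2 change -1.30 ± 0.19, adjusted p = 0.0045), also without overlap. Rest, the repressor of neuronal genes, stood at 10.2 and 4.34 CPM at P3, 7.26 and 9.80 at P9, 2.29 and 1.25 at P15 and 0.585 and 1.4954 at P18 and was 5.89-fold lower (log2 change -2.56 ± 0.44, adjusted p = 0.00868). Tgm2, a transglutaminase, had a log2 change of -1.67, Mgst1, a glutathione transferase, of -1.74, Cxcl12, a chemokine, of -2.09, Zfp36l1 of -1.66, and Yap1, the effector of Hippo signalling, of -1.54. The count was 4 without P18 replicate 1 and 1 (Smad3) without P3 replicate 1 and P9 replicate 1 together. In single β cells, described below, 15 of the list were tested and 0 were called (median log2 change -0.72). The mesenchymal and endothelial sums given above were highest in P3 replicate 1 and P9 replicate 1. The 7 duct markers had a median log2 change of -1.39, with 6 at an unadjusted p under 0.05 in edgeR. The part of these cell types in the result was not tested.

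**Figure D3:**
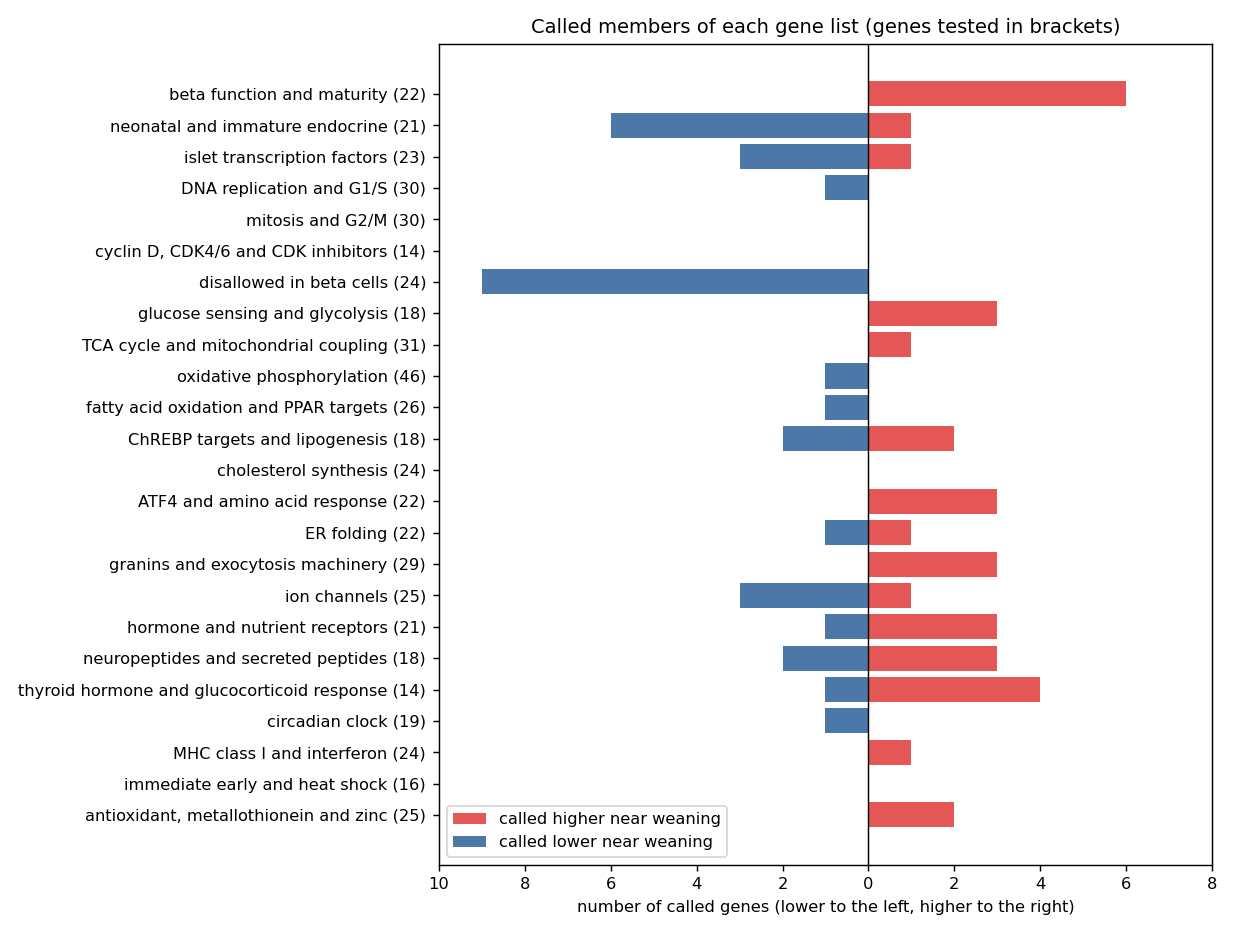
Number of members called higher (right, red) and lower (left, blue) near weaning in each of the 24 gene lists, with the number of genes tested in brackets. The disallowed list has 9 genes lower and 0 higher, and the β function list has 6 higher and 0 lower.

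Few metabolic genes were called. Of 18 genes of glucose sensing and glycolysis, 3 rose and 0 fell (median 0.14), and of 31 genes of the TCA cycle and mitochondrial coupling 1 rose. Pfkp, the platelet-type phosphofructokinase, stood at 6.37 and 7.06 CPM at P3, 9.87 and 13.6 at P9, 24.5 and 23.7 at P15 and 14.3 and 15.4 at P18 (log2 change 1.09 ± 0.14, adjusted p = 0.00292), and all later libraries were higher. Eno2, the neuronal enolase, stood at 11.9 and 16.0 CPM at P3, 28.0 and 23.9 at P9, 26.3 and 63.1 at P15 and 31.1 and 38.3 at P18 (log2 change 1.05 ± 0.27, adjusted p = 0.0428), with overlap. With 1 library left out the 3 rises became 1 without P3 replicate 1, P9 replicate 2, P15 replicate 2, P18 replicate 1 or P18 replicate 2. Pcx, the pyruvate carboxylase that feeds oxaloacetate to the cycle, stood at 159.5 and 148 CPM at P3, 172 and 159 at P9, 202 and 226 at P15 and 233 and 206 at P18, without overlap (log2 change 0.44 ± 0.10, adjusted p = 0.0204). The call ended without P3 replicate 1 (0.47), P3 replicate 2 (0.42), P9 replicate 1 (0.47), P9 replicate 2 (0.43), P15 replicate 2 (0.40) or P18 replicate 1 (0.39). Of 46 genes of oxidative phosphorylation 1 fell, Uqcrfs1, a complex III subunit (log2 change -0.44), a call that ended without any 1 of 7 libraries, and of 26 genes of fatty acid oxidation 1 fell. That was Acot1, a thioesterase, at 6.65 and 5.30 CPM at P3, 3.51 and 4.73 at P9, 2.03 and 1.5950 at P15 and 0.585 and 0.561 at P18 (log2 change -2.27 ± 0.34, adjusted p = 0.00471), low throughout but without overlap. Without P3 replicate 2 this list had 3 fallers.

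Targets of the glucose-responsive factor ChREBP did not move as a block: of 18 genes of that list 2 rose and 2 fell (median -0.02). Txnip, a thioredoxin-binding arrestin that glucose induces, stood at 799 and 1277 CPM at P3, 512 and 336 at P9, 145 and 476 at P15 and 258 and 310.4 at P18 (log2 change -1.16 ± 0.31, adjusted p = 0.0482). Its relative Arrdc4 stood at 49.5 and 30.7 CPM at P3, 32.5 and 16.0 at P9, 9.91 and 13.2 at P15 and 18.6 and 14.8 at P18 (log2 change -1.17 ± 0.23, adjusted p = 0.015). Txnip overlapped between the groups, and Arrdc4 overlapped through P9 replicate 2 and P18 replicate 1. Elovl6, which elongates fatty acids, stood at 41.9 and 37.1 CPM at P3, 22.5 and 32.1 at P9, 77.3 and 57.0 at P15 and 46.9 and 61.6 at P18 (log2 change 0.88 ± 0.17, adjusted p = 0.0153). Scd1, a desaturase, rose from 0.588 to 1.42 CPM in neonatal libraries to between 2.16 and 5.78 CPM (log2 change 1.92 ± 0.41, adjusted p = 0.0193). These counts fell to 1 or 0 under most left-out libraries. Of 24 genes of cholesterol synthesis 0 were called at an adjusted p under 0.05, with 2 at an unadjusted p under 0.05 (edgeR).

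With all libraries, 1 gene of the cell cycle was called. Of 30 genes of DNA replication 1 fell (median -0.64), and of 30 mitotic genes 0 were called, with 0 at an unadjusted p under 0.05 in edgeR (median -0.29). The faller was Rfc3, a clamp loader subunit, at 18.2 and 17.7 CPM at P3, 14.4 and 13.5 at P9, 11.8 and 8.43 at P15 and 9.23 and 9.81 at P18. Mki67, a marker of cycling cells, stood at 88.2 and 195 CPM at P3, 149 and 147 at P9, 179 and 15.2 at P15 and 129.8 and 120.1 at P18 (log2 change -0.39 ± 0.52, adjusted p = 0.692), and P15 replicate 2 was far below the other 7 libraries. Without P15 replicate 1, 22 of the 30 replication genes and 26 of the 30 mitotic genes were called lower, while 0 were called in either list without each other library, Rfc3 included. In single β cells 0 of both lists were called, with medians of -0.55 and -3.12 for replication and mitotic genes.

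Of 29 granin and exocytosis genes 3 rose and 0 fell (median 0.10). Besides Syt4 these were Cadps, a priming factor of dense core granules, at 159 and 157 CPM at P3, 152 and 176 at P9, 212 and 221 at P15 and 235 and 250.3 at P18 (log2 change 0.51 ± 0.10, adjusted p = 0.0132), and Scg5, the chaperone of prohormone convertase 2. Scg5 had 490.3 and 412 CPM at P3, 578 and 643 at P9, 801 and 875 at P15 and 845 and 686 at P18 (log2 change 0.61 ± 0.14, adjusted p = 0.0275). Both were without overlap, and 1 rise, Syt4, was left without P3 replicate 1 or P9 replicate 1. Of 22 genes of ER folding, Ero1lb rose and Sel1l, which retires misfolded proteins, fell. Sel1l had 338 and 365 CPM at P3, 456 and 472 at P9, 252 and 204 at P15 and 252 and 341 at P18 (log2 change -0.64 ± 0.13, adjusted p = 0.0153), and its call ended without P15 replicate 2 (-0.56) or P18 replicate 1 (-0.54). The clock list (19 genes) had 1 faller, Nfil3 (-0.71, adjusted p = 0.0419), and the interferon and MHC list (24) had 1 riser, Ifi27 (0.64, 0.0208). The ATF4 list (22) had 3 risers, Chac1 (1.25, 0.0382), Vldlr (0.75, 0.0429) and Mthfd2 (0.51, 0.0229), of which 0 or 1 was left without each library other than P15 replicate 1. The call of Nfil3 ended without each library other than P9 replicate 2, where 4 clock genes were called lower. That of Ifi27 ended without P3 replicate 1 (0.65), P9 replicate 1 (0.59), P15 replicate 2 (0.54) or P18 replicate 1 (0.59). Without P15 replicate 1, 4 ER genes were called lower. The immediate early list (16 genes) and the cyclin D and CDK inhibitor list (14) had 0 calls, with 4 and 2 at an unadjusted p under 0.05 in edgeR.

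Metallothioneins, small proteins that bind zinc and copper, were the 2 called genes of 25 on the antioxidant and zinc list. Mt1 stood at 47.5 and 47.2 CPM at P3, 117 and 63.6 at P9, 127 and 559 at P15 and 88.8 and 178 at P18 (log2 change 1.71 ± 0.45, adjusted p = 0.0458). Mt2 had 28.5 and 28.8 CPM at P3, 62.2 and 36.1 at P9, 74.0 and 441 at P15 and 53.7 and 133 at P18 (log2 change 2.04 ± 0.50, adjusted p = 0.0342). In both genes P15 replicate 2 was the highest library and the groups overlapped. The bulk call of Mt1 ended without P3 replicate 1 (1.71), P3 replicate 2 (1.71), P9 replicate 1 (1.96), P9 replicate 2 (1.53), P15 replicate 2 (0.99), P18 replicate 1 (1.91) or P18 replicate 2 (1.42). That of Mt2 ended without P3 replicate 1 (2.04), P3 replicate 2 (2.05), P9 replicate 1 (2.27), P9 replicate 2 (1.88), P15 replicate 2 (1.14) or P18 replicate 2 (1.65). In single β cells Mt1 had a median of 22.5 CPM over the 8 neonatal batches (range 9.93 to 228) and 208 over the 6 near-weaning batches (range 147 to 361). For Mt1 the single-cell test gave a log2 change of 2.45 ± 0.26 and an adjusted p of 5.55e-05. Mt2 had a median of 4.41 CPM over the 8 neonatal batches (range 0.996 to 59.6) and 40.7 over the 6 near-weaning batches (range 30.6 to 98.0). For Mt2 the single-cell test gave a log2 change of 2.73 ± 0.62 and an adjusted p of 0.0325. Their promoters are printed because both genes were called in both kinds of library and lie side by side on chromosome 8. The capitals mark every TGCACNC or TGCGCNC, the core of the metal response element, on either strand, in the 250 bases before and 50 after the start in RefSeq (GRCm38.p6). Mt1 is at chr8:94178839-94179138 and Mt2 at chr8:94172368-94172667, both on the plus strand.
Mt1: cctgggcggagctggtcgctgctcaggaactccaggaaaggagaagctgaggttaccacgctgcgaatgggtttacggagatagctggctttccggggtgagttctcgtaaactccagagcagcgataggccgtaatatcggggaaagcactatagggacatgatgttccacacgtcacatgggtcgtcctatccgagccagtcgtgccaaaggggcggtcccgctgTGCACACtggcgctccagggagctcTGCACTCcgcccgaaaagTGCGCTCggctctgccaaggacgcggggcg
Mt2: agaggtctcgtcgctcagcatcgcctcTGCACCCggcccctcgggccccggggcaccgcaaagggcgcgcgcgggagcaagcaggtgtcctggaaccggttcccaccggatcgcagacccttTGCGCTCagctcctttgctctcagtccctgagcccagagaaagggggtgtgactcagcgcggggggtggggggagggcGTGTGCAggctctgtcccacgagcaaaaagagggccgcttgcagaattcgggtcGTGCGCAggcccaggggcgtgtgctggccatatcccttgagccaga
Mt1 held 3 matches and Mt2 held 4. Of 32851 promoters of the same length, 25.7% held at least 1 match and 1.97% at least 3.

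Several of the most changed genes encode secreted proteins of exocrine type. Reg2, a regenerating islet-derived protein, stood at 5.76 and 0.294 CPM at P3, 1.33 and 3.29 at P9, 34.9 and 176 at P15 and 175 and 226 at P18 (log2 change 5.78 ± 0.95, adjusted p = 0.00836). Reg3a, a lectin of the same family, had 9.03 and 0.294 CPM at P3, 0.285 and 2.36 at P9, 12.7 and 64.5 at P15 and 92.4 and 89.8 at P18 (log2 change 4.64 ± 0.94, adjusted p = 0.0186). Both were without overlap. The call of Reg2 ended without P9 replicate 1 (5.48), and that of Reg3a without P9 replicate 1 (4.13), P15 replicate 2 (3.84) or P18 replicate 1 (4.61). Prss1, a trypsinogen gene, stood at 601 and 658 CPM at P3, 409 and 461 at P9, 136 and 39.7 at P15 and 13.4 and 24.8 at P18 (log2 change -3.68 ± 0.71, adjusted p = 0.0142) and fell without overlap. Its call ended without P15 replicate 2 (-3.36), P18 replicate 1 (-3.49) or P18 replicate 2 (-3.93). Pnlip, the pancreatic lipase of acinar cells, stood at 7.81 and 8.39 CPM at P3, 7.07 and 7.18 at P9, 30.7 and 129 at P15 and 948 and 911 at P18 and was the 1 called gene of 20 acinar markers (log2 change 5.16 ± 0.52, adjusted p = 0.000953).

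Acinar markers as a whole did not separate the groups. Their sum was 38642 and 30356 CPM at P3, 52871 and 83758 at P9, 50292 and 24363 at P15 and 24097 and 38384 at P18 (exact p = 0.229, exact permutation test), and the highest library was P9 replicate 2. With the acinar sum as a covariate, 300 rises and 405 falls were called. Pnlip (log2 change 5.04, adjusted p = 0.00261), Reg2 (6.79, 0.0125), Reg3a (5.42, 0.0374) and Prss1 (-3.07, 0.0022) were among them. In that fit 7 of the 20 acinar markers were called higher and 2 lower, against 1 and 0 without the covariate. Whether the sum takes up all acinar RNA was not tested. Reg2, Reg3a and Prss1 belong to families of close relatives, between which the counting could split reads. In single β cells Prss1 had a median of 0 CPM over the neonatal batches (range 0 to 0.594) and was at 0 in all near-weaning ones. Pnlip was at 0 in all neonatal batches, and neither gene was called. Reg2 and Reg3a were at 0 in all batches of both ages and were not tested.

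**Figure D4:**
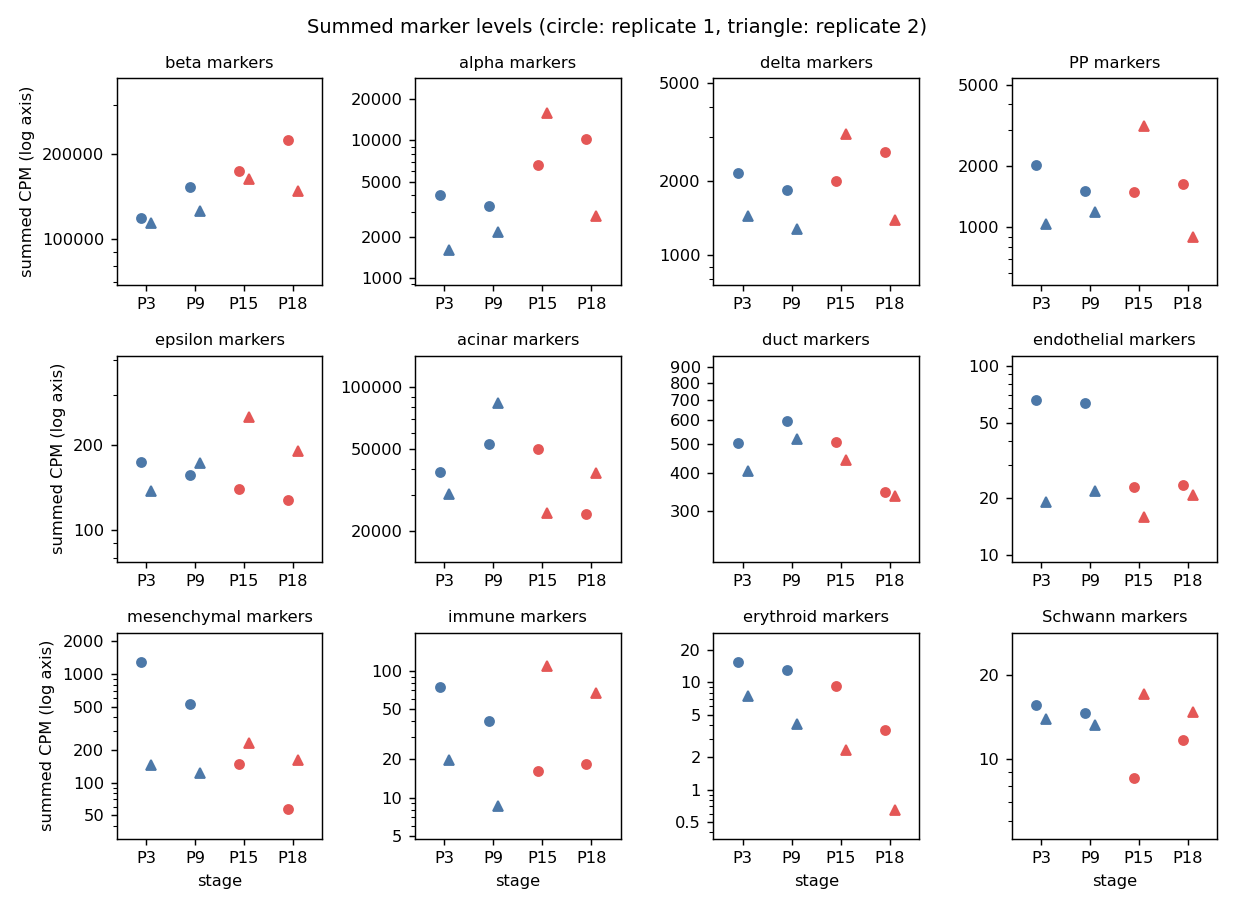
Summed CPM (log axis) of 12 marker lists in each bulk library at P3 and P9 (blue) and P15 and P18 (red), with circles for replicate 1 and triangles for replicate 2. Mesenchymal markers reach 1291 CPM in P3 replicate 1, and alpha markers reach 15759 CPM in P15 replicate 2.

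The label of β cells was checked against the hormones and markers. β markers summed to 118373 and 113624 CPM at P3, 152850 and 125534 at P9, 173926 and 163673 at P15 and 225004 and 147580 at P18 (exact p = 0.0571, exact permutation test). The glucagon gene Gcg had 3332 and 987 CPM at P3, 2915 and 1606 at P9, 5990 and 14711 at P15 and 9681 and 2070 at P18 (adjusted p = 0.0659). For Sst, which encodes somatostatin, the levels were 1749 and 1204 CPM at P3, 1684 and 1127 at P9, 1819 and 2840 at P15 and 2387 and 1245 at P18 (adjusted p = 0.306), and neither gene was called. Pancreatic polypeptide mRNA (Ppy) was at 459 and 254 CPM at P3, 429 and 314 at P9, 611 and 1855 at P15 and 849 and 479.5 at P18 and was called (log2 change 1.31 ± 0.32, adjusted p = 0.0342). That call ended without P3 replicate 1 (1.56), P3 replicate 2 (1.13), P9 replicate 1 (1.44), P9 replicate 2 (1.22), P15 replicate 2 (0.81) or P18 replicate 1 (1.07). All 3 hormones were highest in P15 replicate 2. The duct markers Sox9 at 18.2 and 17.7 CPM at P3, 15.0 and 26.6 at P9, 9.53 and 6.44 at P15 and 4.22 and 6.17 at P18 (log2 change -1.59 ± 0.29, adjusted p = 0.0111) and Krt19 fell without overlap. Krt19 had 17.4 and 14.9 CPM at P3, 19.3 and 14.7 at P9, 11.3 and 4.73 at P15 and 4.81 and 5.23 at P18 (log2 change -1.39 ± 0.30, adjusted p = 0.0223), and its call ended without P3 replicate 1 (-1.32), P9 replicate 1 (-1.28), P15 replicate 2 (-1.14), P18 replicate 1 (-1.36) or P18 replicate 2 (-1.42). Spp1, osteopontin, fell as well (-1.75, adjusted p = 0.01), with P15 replicate 1 level with P3 replicate 2. The duct calls numbered 1 without P18 replicate 1 and 5 without P15 replicate 1. The 12 marker sums had exact p-values of 0.0571 or more, where 4 against 4 can reach 0.0286.

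Of 18 neuropeptides and secreted peptides, 3 rose (Iapp, Ucn3 and Ttr) and 2 fell (Spp1 and Tph1; median -0.44). Tph1, which makes serotonin, was near the limit of reading, at 0.609 and 0.515 CPM at P3, 0.332 and 0.760 at P9, 0 and 0 at P15 and 0.0650 and 0 at P18. Npy, neuropeptide Y, stood at 13.7 and 12.8 CPM at P3, 9.49 and 3.55 at P9, 6.55 and 8.94 at P15 and 18.2 and 5.79 at P18 and was not called (log2 change 0.04 ± 0.37, adjusted p = 0.961). Ttr, transthyretin, a thyroid hormone carrier, stood at 321 and 224 CPM at P3, 366 and 172 at P9, 589 and 773 at P15 and 734 and 476 at P18 (log2 change 1.24 ± 0.26, adjusted p = 0.0173), without overlap, and its call ended without P15 replicate 2 (1.14) or P18 replicate 1 (1.07). The rises of this list numbered 1 without P18 replicate 1.

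The steps within the interval were tested in the same fit and share libraries, so their values stand side by side. From P3 to P9, 6 genes rose and 6 fell (12 of 16086, 0.0746%). In the 2 later steps (P9 to P15, then P15 to P18) 0 genes were called by edgeR, with 1851 and 912 at an unadjusted p under 0.05, while DESeq2 called 289 and 11. Among the early risers Tceal3, of a family of transcription elongation factor-like proteins, stood at 7.98 and 6.77 CPM at P3, 23.9 and 23.2 at P9, 40.3 and 40.3 at P15 and 37.9 and 29.7 at P18 (log2 change 1.67, adjusted p = 0.0399). Ptprm, an adhesion phosphatase, had 20.6 and 19.3 CPM at P3, 58.9 and 54.0 at P9, 43.9 and 50.0 at P15 and 43.7 and 41.0 at P18 (log2 change 1.498, adjusted p = 0.0399), and Gpr158, an orphan receptor, had 48.8 and 64.4 CPM at P3, 126 and 164 at P9, 160.0 and 116 at P15 and 159 and 141 at P18 (log2 change 1.36, adjusted p = 0.0399). The early fallers named by the rule were Kcnk9, a two-pore potassium channel, at 28.4 and 21.8 CPM at P3, 3.42 and 0.591 at P9, 0.763 and 0.968 at P15 and 0.325 and 1.31 at P18 (log2 change -3.51, adjusted p = 0.0399), Plekhg1 and Dlk1 (log2 change -2.95, adjusted p = 0.0399). Plekhg1 had 39.2 and 27.0 CPM at P3, 7.69 and 2.96 at P9, 2.61 and 4.04 at P15 and 2.66 and 2.52 at P18 (log2 change -2.60, adjusted p = 0.0399). As edgeR called no gene at all in either later step, these genes cannot be said to have changed from P3 to P9 alone. The 12 early calls became 0 without P3 replicate 1 or P9 replicate 2, 1 without P3 replicate 2, P18 replicate 1 or P18 replicate 2, and 2 without P9 replicate 1. From P9 to P15, 196 genes were called without P15 replicate 1, 11 without P18 replicate 1 and 8 without P18 replicate 2.

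The P60 libraries of the same fit show where these genes stood in the adult, a comparison that shares the P15 and P18 libraries. Syt4 had 144 and 199 CPM at P60 (log2 change 1.01, adjusted p = 0.00506), higher again. Ucn3 was at 538 and 592 (log2 change 0.61, adjusted p = 0.04), also higher. Rgs2 had 299 and 214 CPM (log2 change -0.01, adjusted p = 0.999), which was not called. Sstr3, at 311 and 340.3, was not called either (log2 change -0.07, adjusted p = 0.864). Igf2bp3 had 0 reads in both P60 libraries, and Dlk1 had 1.84 and 0.959 CPM (log2 change -4.70, adjusted p = 0.000479). Lamb1 ended at 1.13 and 0.511 CPM (log2 change -3.46, adjusted p = 0.00839), lower again. Oat, at 3.75 and 4.35, was lower as well (log2 change -2.64, adjusted p = 0.000836).

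Single β cells of the same stages were sequenced with Smart-seq2, a full-length method without molecular identifiers, in libraries that the bulk comparison does not use. Reads were summed over the cells of each labelled batch, giving 153 neonatal cells in 8 batches and 128 near-weaning cells in 6, and tested with the collection method as covariate. Of 16107 genes tested, 65 were called higher (0.404%) and 82 lower (0.509%). Of the bulk rises 461 were tested there, 397 (86.1%) had the same sign, 32 were also called and 0 were called the other way. Of the bulk falls 526 were tested, 436 (82.9%) had the same sign, 36 were also called and 0 were called the other way. Over all 14406 genes tested in both, 64.7% had the same sign. The 32 shared rises were 6.82% of the bulk rises and 49.2% of the single-cell rises, and the 36 shared falls were 5.92% and 43.9%.

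**Figure D5:**
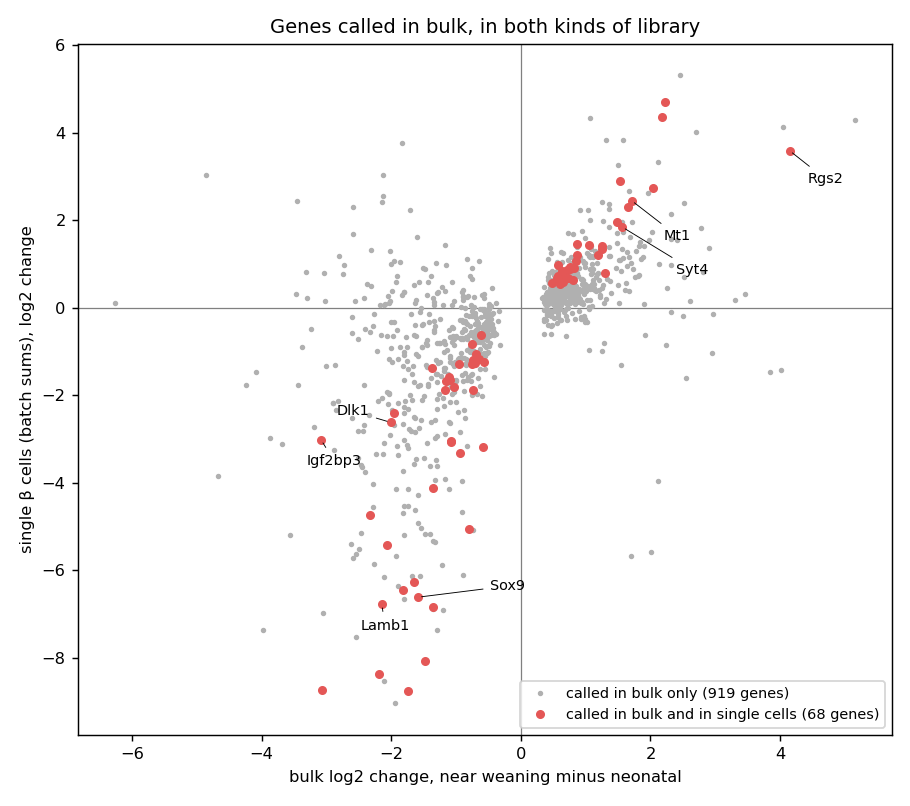
Log2 change near weaning against neonatal of each gene called in bulk (horizontal) and in single β cells summed by batch (vertical). The 68 genes called in both (red) all lie in the lower left or upper right part of the plot, and the others (grey) are spread more widely.

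Among the shared genes Syt4 had a median of 23.5 CPM over the 8 neonatal batches (range 7.98 to 36.8) and 67.2 over the 6 near-weaning batches (range 40.4 to 103). For Syt4 the single-cell test gave a log2 change of 1.85 ± 0.29 and an adjusted p of 0.00153. Rgs2 had a median of 6.74 CPM over the 8 neonatal batches (range 1.93 to 21.5) and 42.6 over the 6 near-weaning batches (range 31.3 to 275). For Rgs2 the single-cell test gave a log2 change of 3.59 ± 0.53 and an adjusted p of 0.000866. Neither gene overlapped between the 2 sets of batches. Igf2bp3 had a median of 17.7 CPM over the 8 neonatal batches (range 8.41 to 28.6) and 1.54 over the 6 near-weaning batches (range 0.688 to 2.54). For Igf2bp3 the single-cell test gave a log2 change of -3.02 ± 0.65 and an adjusted p of 0.023, and it too did not overlap. Dlk1 had a median of 18.1 CPM over the 8 neonatal batches (range 3.53 to 98.7) and 1.98 over the 6 near-weaning batches (range 0.893 to 7.06). For Dlk1 the single-cell test gave a log2 change of -2.62 ± 0.57 and an adjusted p of 0.0251, and its batches overlapped. Lamb1 was at 1.36 to 19.2 CPM in neonatal batches and at 0 to 1.34 CPM in near-weaning ones (adjusted p = 0.00408). Col18a1, Gpc3 and Lama5 were not called (adjusted p = 0.166, 0.171 and 0.145) and were low at both ages. Their medians over the neonatal batches were 1.87, 0.701 and 0.581 CPM. Each ranged there from 0 to at most 9.71 CPM, and each lay at 0.471 CPM or lower in all near-weaning batches. Iapp, Ero1lb, Trpm5, Sstr3, Eno2, Scg5, Igf2bp1, Txnip, Tceal3, Plekhg1, Mt1, Mt2 and Sox9 were called in the direction of bulk. Ins2 was called higher in single cells (log2 change 0.63, adjusted p = 0.0133) but not in bulk. Ucn3 missed the threshold there (log2 change 0.80, adjusted p = 0.0585), as did Dio1 (log2 change 0.42, adjusted p = 0.477), P2ry1 (log2 change 1.03, adjusted p = 0.161) and Smad3 (log2 change -1.05, adjusted p = 0.854). FACS-sorted batches alone gave 6 rises, hand-picked batches alone 419 falls, and without P9 batch 3 the counts were 28 and 48. They were 36 and 53 without P18 batch 3, and the rises numbered 39 without P9 batch 1 and 42 without P15 batch 1.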

How the data were processed

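The authors deposited a table of raw read counts per gene for the 14 bulk libraries and read counts per gene for single cells. The submitters' processing notes name TopHat2 2.1.0, HTSeq 0.6.0, DESeq 1.20.0, GRCm38 and mm10. Their roles and the strand setting are not given in the sources used here. Spike-in rows were left out (92 of them). Genes passing filterByExpr by stage were fitted with edgeR 4.0.16 (TMM, quasi-likelihood) over all 14 libraries, and the mean of P15 and P18 was set against the mean of P3 and P9, with Benjamini-Hochberg adjustment. Single-cell counts were summed per labelled batch. The scripts were tested on simulated data. DESeq2 1.42.0, other filters and scalings, covariates and left-out libraries were tried. Named genes were the 10 largest rises and falls at 20 CPM or more with no overlap between groups (leaving out predicted, ribosomal and mitochondrial genes and most marker lists), per function list the 2 called members of lowest p among those reaching 5 CPM, the 3 largest called changes per direction of each step, and a fixed set of hormones and β cell genes. Others, such as Pnlip, Rest, Sox4 and Hmga2, were chosen after their values were seen. Members and lists were chosen with earlier results of these data known. Total depth of the 8 libraries was 10834666 to 21440593 counts. Some genes that the naming rule covers are not reported here.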

Additional observations from a re-analysis of the deposited data

Results flagged for a closer look

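In 5 of 160 groups of 4 libraries, 1 library lay far from the other 3 by Dixon's criterion, where chance gives about 5% of groups. Each group joins libraries of 2 stages. Syt4 reached 102 CPM in P18 replicate 1. Chac1 reached 19.7 CPM and Plekhg1 4.04 CPM in P15 replicate 2. Spp1 reached 105 CPM in P15 replicate 1. Xist reached 5.59 CPM in P18 replicate 1.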

How the results depend on the processing

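No gene called in bulk changed sign under any bulk alternative run. Rises and falls numbered 776 and 1003 with DESeq2, 898 and 1426 without a count filter, 193 and 295 with the 8 libraries alone, 177 and 243 with these as 2 groups, 300 and 405 with the acinar covariate, 155 and 232 with the Xist covariate, and 33 and 54 without the 2 libraries high in Xist, a setting chosen after seeing the data. Leaving out 1 library gave 139 to 528 rises, 220 to 778 falls, 0 to 11 calls from P3 to P9, 0 to 196 from P9 to P15 and 0 to 1 from P15 to P18. Calls for these 3 steps numbered 132, 289 and 11 with DESeq2 and 523, 771 and 346 without a filter. In single cells there were 202 rises and 369 falls with DESeq2, 122 and 247 without a filter, 6 rises in FACS-sorted batches and 419 falls in manually picked ones, and 28 to 66 rises and 48 to 92 falls with 1 batch left out. The cause of these shifts was not tested.

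The labels do not say that replicate numbers pair the libraries. Deviations of same-numbered libraries correlated at 0.402 for P3 and P9, 0.201 for P15 and P18, 0.148 for P3 and P18, -7.34e-05 for P9 and P18, -0.02 for P9 and P15 and -0.033 for P3 and P15, so not every pair deviated together. A replicate block gave 421 rises and 557 falls, 0 calls from P3 to P9, and ended the calls of Mt1, Mt2, Bach2, Eno2, Oxtr, Psap, Sox4, Txnip, Vldlr, Zbtb16, Zfp36l1 and H2-Aa among the genes of the lists and the text.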

Other observations

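Among the 68 genes called in both bulk and single β cells were several outside the lists, chosen here after their values were seen. All values below are log2 changes near weaning against neonatal, with adjusted p from edgeR in brackets, first in bulk and then in single cells. Lgi1, a secreted neuronal protein, rose from a mean of 4.13 to 18.8 CPM in bulk (2.22, 0.000614). Cntnap2, a neurexin-like adhesion protein, rose from a mean of 12.0 to 33.4 CPM in bulk (1.66, 0.000953) and changed by 2.31 (0.0149) in single cells. Slit1, an axon guidance ligand, fell from a mean of 12.9 to 2.08 CPM in bulk (-2.33, 0.00275). Rasgrp1, an activator of Ras, fell from a mean of 14.9 to 1.55 CPM in bulk (-3.07, 0.00196). Grb10, an imprinted adaptor that restrains insulin signalling, fell from a mean of 186 to 76.6 CPM in bulk (-1.17, 0.0012) and changed by -1.87 (0.000809) in single cells. Enpp2, the enzyme that makes lysophosphatidic acid, fell from a mean of 782 to 332 CPM in bulk (-1.09, 0.00959) and changed by -1.65 (0.000812) in single cells. Mmp14, a membrane-bound matrix protease, fell from a mean of 20.3 to 5.67 CPM in bulk (-1.82, 0.00935). Aga, a lysosomal glycoprotein hydrolase, rose from a mean of 50.0 to 78.5 CPM in bulk (0.65, 0.00511) and changed by 0.59 (0.0163) in single cells. Hexa, a lysosomal hexosaminidase subunit, rose from a mean of 100.0 to 149 CPM in bulk (0.59, 0.0157) and changed by 0.61 (0.0176) in single cells. Psap, the precursor of the saposins, rose from a mean of 893 to 1243 CPM in bulk (0.48, 0.0374) and changed by 0.56 (0.047) in single cells. For Lgi1, Slit1, Rasgrp1 and Mmp14 the single-cell levels of 1 group were near 0, so no change is given. The bulk call of Psap ended without each library other than P15 replicate 1 (log2 change 0.38 to 0.52), and that of Hexa without P3 replicate 1 (0.54), P9 replicate 1 (0.56), P15 replicate 2 (0.49) or P18 replicate 1 (0.50).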
